A study of Homo sapiens with 6 samples.

Results

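The hypoxia-inducible factor (HIF) genes and their targets were examined in human hepatocellular carcinoma cells with and without overexpression of transketolase (TKT), an enzyme of the pentose phosphate pathway. The members were the rows of the count table whose gene symbol was HIF1A, EPAS1, EGLN1, EGLN3, VEGFA, CA9, NDRG1, BNIP3, ANKRD37 or P4HA1. All 10 symbols were found among the 22077 genes of the table. They were selected on values of these same libraries, the difference in normalized counts between TKT-overexpressing and control cultures, so the differences given for them are descriptions and carry no test. Bulk RNA was sequenced from 3 cultures labelled over-expression and 3 control cultures labelled wt. Their sample titles are OE1 to OE3 and VC1 to VC3. The label spells the cell line Hu7, and the study's results name Huh7, whereas its methods name HCCLM3 for the sequenced RNA. Both are lines of human hepatocellular carcinoma, and which of them was sequenced was not settled here. TKT was transfected on the plasmid pTSB02-GFP-PURO and the cells were then selected, while what the control cells received is not given in the sources used here. The labels name no hypoxic culture for either group. The labels call the replicates biosamples and do not say whether they came from separate transfections, so the spread between them may be partly technical. In such bulk RNA, a change in the number of cells that make a transcript and a change in the transcript per cell cannot be told apart.

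HIF is a transcription factor made of an oxygen-regulated alpha subunit and the constant partner ARNT. When oxygen is present, prolyl hydroxylases of the EGLN family mark the alpha subunit for the VHL ubiquitin ligase, and the protein is destroyed. When oxygen falls the subunit persists, binds the core letters ACGTG or GCGTG in DNA and raises genes for glycolysis, blood vessel growth, pH control and mitochondrial turnover. Because the main control acts on the protein, transcript levels of the subunits say little about HIF activity, and the targets are the usual transcript readout. Embolization of a liver tumour cuts off its oxygen, which is why this pathway is of interest beside TKT.

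Totals lay between 30148788 and 37096156 counts per library. TKT had 469 to 515 CPM (counts scaled to library size with TMM factors) in control cultures and 9392 to 9549 on overexpression, in the direction of the labels. Of the 10 listed markers of hepatocytes and liver cancer, 1 was under 1 CPM, namely APOB, and the summed level lay between 20610 and 21010 CPM in control cultures and between 21180 and 21530 on overexpression, most of it from ALB and AFP. Within this list FGB rose by 0.50 on the log2 scale (adjusted p = 8.85e-10 in edgeR) and HNF4A fell by 0.15 (adjusted p = 0.00720). Of 5 endothelial, 5 fibroblast and 5 leukocyte markers, 2, 3 and 4 were in the table, and the only ones with a mean over 1 CPM were PECAM1, PDGFRB and LYZ. LYZ fell from 151 to 119 CPM (log2 fold change -0.35, adjusted p = 1.71e-05 in edgeR), and the part of these 3 markers in the results below was not tested. Several genes that most cells use were listed close to 0. LDHA had 2 to 6 counts per library, LDHB 1 to 7, TUBB 18 to 25 and APOB, an abundant liver transcript, at most 6 (genes singled out after their values were seen). A low value in this table therefore could not be read as absence of the transcript. RPS2, a ribosomal protein gene, ran from 80 to 713 counts between libraries, so the listed values of such genes could also differ widely between cultures. Whether any member or pathway gene was affected in this way was not tested.

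The letters that HIF binds were looked up in the RefSeq promoter windows of the members (GRCh38.p14, 250 bases before to 50 after the start of transcription), since they separate members with a textbook binding core near the start from those without. Windows were held for 8 of the 10 members. VEGFA and NDRG1 were not among them. The core ACGTG or GCGTG on either strand, which reads CACGT or CACGC on the opposite strand, was present in 7 of the 9 windows of these genes, beside 59.9% of the 15750 windows of tested genes. A match is only a run of letters. The stretches of the target genes and of EGLN1 are shown 5′ to 3′ on the strand of the gene, with the core in capitals.
BNIP3: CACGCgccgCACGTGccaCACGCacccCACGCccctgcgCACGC
ANKRD37: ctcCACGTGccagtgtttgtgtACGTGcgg
CA9: tcgtttccaatgCACGTacagcccgtaca
P4HA1: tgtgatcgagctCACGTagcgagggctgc
EGLN1: gggccgtggtgtACGTGcagagcgc
The BNIP3 stretch (chr10:131982023-131982066, minus strand) held 6 matches, counting CACGTG once on each strand. At least 6 matches were found in 1.26% of the windows of tested genes. The ANKRD37 stretch (chr4:185396676-185396705, plus strand) held 3 matches, and at least 3 were found in 13.99% of the windows of tested genes. The letters CACGTG in BNIP3 and ANKRD37 are also the E-box that MYC binds, and 9.2% of the windows of tested genes held them. CA9 had its 1 match 18 bases before the start (chr9:35673898-35673926, plus strand), P4HA1 86 bases before it (chr10:73096936-73096964, minus strand) and EGLN1 13 bases before it (chr1:231422288-231422312, minus strand). HIF1A and EPAS1 each had 1 match of the form GCGTG, and the window of EGLN3 had none.

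Levels between genes were compared per gene length, in the deposited FPKM (fragments scaled to gene length and library size). BNIP3 came first with 62.5 ± 1.87 FPKM in control cultures (SD, n = 3), followed by HIF1A with 47.3 ± 2.96 and EPAS1 with 32.4 ± 0.975. P4HA1 had 16.1 ± 0.349, NDRG1 9.56 ± 0.267 and VEGFA 8.82 ± 0.0825. The abundant members therefore included both subunits and 4 of the 6 targets. EGLN1 and EGLN3 were far lower, at 1.66 ± 0.222 and 1.52 ± 0.140, ANKRD37 had 0.136 ± 0.0615, and CA9 was last. Apart from EGLN1 and EGLN3, the lowest library of each gene in this order lay above the highest of the next in both conditions. The ranges of EGLN1 and EGLN3 overlapped within each condition, and their order within a library differed between the conditions. The FPKM of EGLN3 was 0.826, 0.943 and 0.999 times that of EGLN1 in the control cultures and 1.18, 1.21 and 1.04 times on overexpression, so that EGLN1 was the higher in all 3 control cultures, by very little in the last, and EGLN3 in all 3 TKT-overexpressing cultures. HIF1A was the more abundant subunit in all 6 cultures, with 1.37 to 1.57 times the FPKM of EPAS1 in control cultures and 1.42 to 1.53 times on overexpression, so that the proportion of the subunits overlapped between the conditions.

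**Figure D1:**
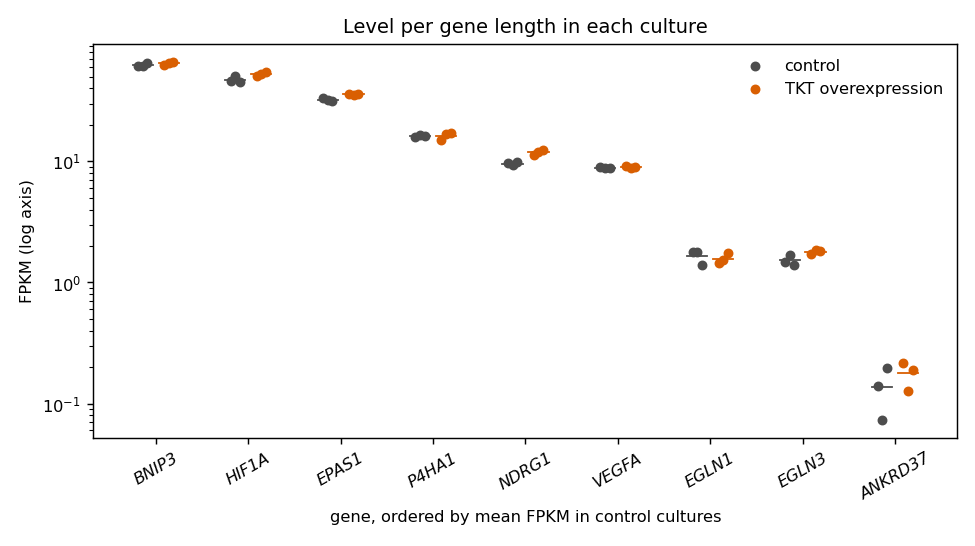
FPKM on a log axis for 9 members in each culture, with control cultures in grey, TKT-overexpressing cultures in orange and a line at each mean. BNIP3, HIF1A and EPAS1 lie above 30 FPKM, EGLN1 and EGLN3 lie between 1.40 and 1.84 FPKM, and ANKRD37 stays at or below 0.215 FPKM. CA9 is left out because 4 of its 6 values are 0.

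Both alpha subunits were slightly higher on TKT overexpression. HIF1A, the broadly expressed subunit (chr14:61695513-61748259, plus strand, GRCh38 with GENCODE 29), had 239, 260 and 236 CPM in the control cultures and 263, 273 and 279 CPM in the TKT-overexpressing cultures. The lowest TKT culture lay just above the highest control culture. The log2 ratio of TKT-overexpressing to control cultures, fitted in edgeR, was 0.15 (standard error, SE, 0.04), that is 10.96% more in mean CPM. EPAS1, the subunit better known in endothelium and in renal cancer (chr2:46293667-46386703, plus strand), had 246, 234 and 233 CPM in control cultures and 263, 263 and 258 CPM on overexpression. Its groups did not overlap either, and the log2 ratio was 0.14 (SE 0.04), or 9.92% more. The antisense transcript HIF1A-AS1 overlaps HIF1A and had at most 25 counts, against at least 7505 for HIF1A. The calls of both subunits were sensitive to single libraries. HIF1A was no longer called without control replicate 1 (log2 ratio 0.13), control replicate 3 (0.12), TKT replicate 2 (0.15) or TKT replicate 3 (0.13), and EPAS1 without control replicate 3 (0.12), TKT replicate 1 (0.13) or TKT replicate 2 (0.13). With limma on log2(FPKM + 1) neither was called, at 0.15 and 0.14.

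The oxygen sensors gave no call. EGLN1, the main hydroxylase acting on HIF1A in normal oxygen, had 9.77, 9.51 and 7.63 CPM in control cultures and 7.80, 8.30 and 9.27 CPM on overexpression. These values overlapped, with a log2 ratio of -0.08 (SE 0.13). EGLN3, a hydroxylase whose gene is itself a HIF target, had 11.04, 12.3 and 10.4 CPM in control cultures and 12.6, 13.7 and 13.2 CPM on overexpression. Here every TKT culture was above every control culture, but by little beside the spread between cultures, and the log2 ratio of 0.23 (SE 0.11) was not past the threshold. In GENCODE 29 the span of EGLN3 overlaps SPTSSA, which had 1338 to 1656 counts against 347 to 467 for EGLN3.

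Among the 6 targets, NDRG1 stood apart. NDRG1, a stress-responsive gene induced by hypoxia and held down by MYC in other cells, had 117, 111 and 119 CPM in control cultures and 137, 146 and 146 CPM on overexpression. The groups were clearly separate, with 115 ± 4.17 against 143 ± 5.25 CPM (SD, n = 3 per condition). Its log2 ratio was 0.31 (SE 0.05). In absolute size this lay at the 81.4th percentile of all tested genes. Over 15 alternatives, which included fits without single libraries, its log2 ratio lay between 0.28 and 0.34 and it was called in each. The lowest value came without control replicate 2 and the highest without TKT replicate 1. NDRG1 was selected on these libraries, so this describes dependence on processing and on single libraries and is no test of the difference. The tested genes most like it in pattern, by the root-mean-square difference of centred log2 CPM over the 6 libraries, were OPN3 (difference 0.0149), LIPC (0.0250) and SGCE (0.0329).

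VEGFA, the growth factor for blood vessels, had 130, 127 and 128 CPM in control cultures and 132, 129 and 129 CPM on overexpression. The groups overlapped, and the log2 ratio was 0.02 (SE 0.04). BNIP3, a mitochondrial protein that directs mitochondria to autophagy, had 250, 248 and 265 CPM in control cultures and 254, 269 and 265 CPM on overexpression, again with overlap (log2 ratio 0.05, SE 0.04). P4HA1, a subunit of the enzyme that hydroxylates collagen, had 49.3, 50.8 and 50.6 CPM in control cultures and 47.1, 52.9 and 52.1 CPM on overexpression. Its TKT cultures lay on both sides of the controls, with a log2 ratio of 0.01 (SE 0.06).

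The remaining targets were too low to compare. ANKRD37, a small ankyrin-repeat protein used as a hypoxia marker, had 10, 5 and 15 counts in control cultures and 18, 9 and 14 on overexpression, which overlapped (log2 ratio 0.37, SE 0.58). CA9, the carbonic anhydrase that is a common tissue marker of hypoxia, had 0, 0 and 1 counts in control cultures and 1, 0 and 0 on overexpression. It did not pass the filter on low counts, and no fold is given. A floor of 3 counts corresponds to between 0.0810 and 0.0987 CPM in these libraries, for counting error only. In GENCODE 29, CA9 overlaps ARHGEF39 on the opposite strand, which had 1159 to 1777 counts, and ANKRD37 overlaps UFSP2 on the opposite strand, with 127 to 212 counts. The strand setting of the counting is not given in the sources used here, and how reads over both genes were assigned is unknown.

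**Figure D2:**
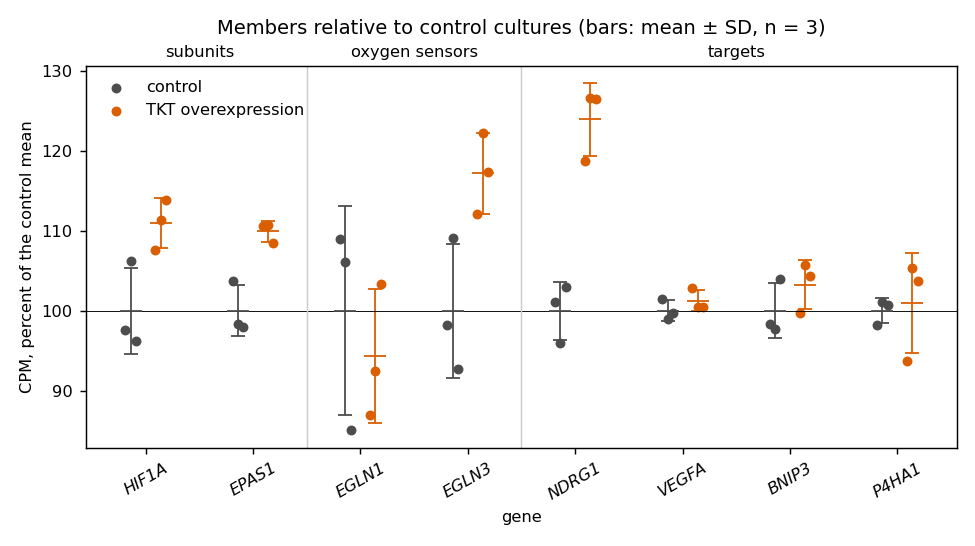
CPM of 8 members as a percentage of the mean of the control cultures, by role, with a point for each culture (grey control, orange TKT overexpression) and bars for the mean ± SD (n = 3). HIF1A, EPAS1, EGLN3 and NDRG1 have no overlap between conditions, while EGLN1, VEGFA, BNIP3 and P4HA1 overlap.

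In all, 9 of the 10 members passed the filter on low counts, and 3 were called at an adjusted p-value under 0.05, HIF1A, EPAS1 and NDRG1, all higher. Over the 14162 tested genes 10.6% were called, 5.69% higher and 4.94% lower. No member was past an absolute log2 fold change of 1 as well, beside 0.727% of tested genes. By role, 2 of 2 subunits, 0 of 2 oxygen sensors and 1 of 5 tested targets were called. The conditions did not overlap in 4 tested members, all with TKT overexpression higher, beside 14.1% of tested genes without overlap in that direction and 28% in either. Since the members were chosen knowing this contrast, nothing is read from these shares.

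The subunits were then set against the targets. The mean log2 ratio of the 2 subunits was 0.14 and the median of the 5 tested targets 0.05, a difference of -0.10. That median was the value of BNIP3. The 5 values ran from 0.01 to 0.37, the highest being that of ANKRD37, which was too low to compare. In each library, the mean log2 CPM of the subunits, relative to the mean of the control cultures, lay between -0.04 and 0.03 in control cultures and between 0.13 and 0.15 on overexpression, which did not overlap. The median of the targets lay between -0.03 and 0.04 in control cultures and between 0.04 and 0.08 on overexpression, so that these groups overlapped. Targets minus subunits ran from -0.07 to 0.08 in control cultures and from -0.09 to -0.08 on overexpression. The pooled SD between libraries was 0.0534, and most of it came from the control cultures. Targets minus subunits depended on control replicate 3, without which the difference between the fold changes was -0.05. The log2 ratio of NDRG1, 0.31, lay above the median of the targets and above that of either subunit. The poorly determined 0.37 of ANKRD37 (SE 0.58) did so as well.

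**Figure D3:**
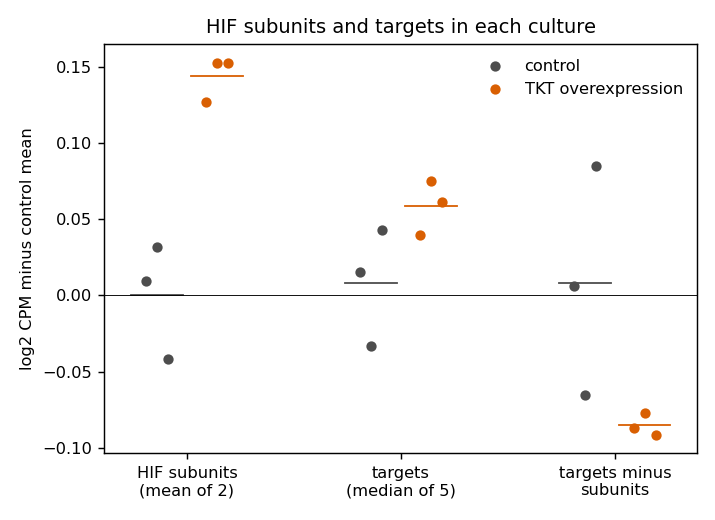
Log2 CPM relative to the control mean in each culture for the mean of HIF1A and EPAS1, the median of the 5 tested targets, and their difference, with a line at the mean of each condition. The subunits of the TKT-overexpressing cultures (orange) lie between 0.13 and 0.15, above all control cultures (grey), while the targets lie between 0.04 and 0.08, and overlap the highest control culture at 0.04.

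Other genes of the pathway were taken from 6 lists with 77 genes, of which 73 were in the table and 65 passed the filter. Of these 65, 14 rose and 11 fell at an adjusted p-value under 0.05, or 21.5% and 16.9%, against 5.69% and 4.94% of all tested genes. Their median log2 ratio was 0.02, beside 0.00082 over all tested genes. The lists were also chosen with earlier results of these data known, so no enrichment is read from these shares or from the counts of single lists below. Rises and falls both occurred among the listed genes.

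Of the 11 tested regulators of HIF, 2 rose and 1 fell. VHL, the ubiquitin ligase subunit that binds hydroxylated HIF, fell from 119 ± 5.89 to 102 ± 5.09 CPM (SD, n = 3 per condition). Its log2 ratio was -0.22 (SE 0.05, adjusted p = 0.00711 in edgeR). It was not called with limma on log2(FPKM + 1), at -0.21. CITED2, a HIF target that competes with HIF for the coactivators EP300 and CREBBP, rose from 112 ± 5.49 to 144 ± 3.90 CPM (log2 ratio 0.37, SE 0.05, adjusted p = 1.62e-05). CREBBP itself rose by 0.19 on the log2 scale (SE 0.06, adjusted p = 0.0412), a call lost without any 1 of the libraries but control replicate 2, with values between 0.13 and 0.22. The partner subunit ARNT and the asparagine hydroxylase HIF1AN had log2 ratios of 0.04 and 0.02 and were not called. EGLN2, the remaining hydroxylase of the family, had a log2 ratio of 0.43 (SE 0.15, adjusted p = 0.0760), and it overlaps a read-through transcript with RAB4B.

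Of the 16 tested glycolytic targets 5 fell and 1 rose, the median ratio being -0.11 on the log2 scale. Over all tested genes 4.94% fell and 5.69% rose, and nothing is read from the count of this list. PFKL, the liver phosphofructokinase, fell from 145 ± 2.42 to 117 ± 3.62 CPM (SD, n = 3 per condition). Its log2 ratio was -0.32 (SE 0.04, adjusted p = 4.47e-05 in edgeR). The other falls were TPI1 (-0.19), SLC16A3, the lactate exporter (-0.24), PGK1 (-0.13) and GPI (-0.11), with SEs between 0.03 and 0.06. PFKFB3, which makes the activator of phosphofructokinase, rose by 0.29 (SE 0.05, adjusted p = 5.76e-04). The smaller falls depended on single libraries or on the scaling. SLC16A3 was not called without control replicate 1, TKT replicate 1 or TKT replicate 3 (-0.24, -0.24 and -0.21). PGK1 was not called without control replicate 1 or 3 or TKT replicate 1 or 3 (-0.13 to -0.11), and GPI kept its call only without control replicate 2, with values between -0.13 and -0.10 in the other 5 fits. With upper-quartile factors PGK1 and GPI were not called (-0.12 and -0.10). SLC2A1, the glucose transporter, had a log2 ratio of -0.12 and was not called. LDHA, HK1, PFKP and SLC2A3 did not pass the filter.

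Of the vascular targets, 5 of 8 tested genes rose and none fell, beside 5.69% higher and 4.94% lower over all tested genes. Their median log2 ratio was 0.46, beside 0.00082 over all tested genes. This list was also chosen with earlier results of these data known, so nothing is read from its count. EDN1, the vasoconstrictor endothelin, had 16.6 CPM in control cultures and 26.4 CPM on overexpression on average, a log2 ratio of 0.67 (SE 0.09, adjusted p = 1.68e-05 in edgeR). Other rises were those of ADM, the vasodilator adrenomedullin (log2 ratio 0.52, SE 0.10), HMOX1, which degrades haem (0.47, SE 0.04), and ANGPTL4, an inhibitor of lipoprotein lipase (0.45, SE 0.11). EPO, PGF and TFRC were not called, with log2 ratios of 0.04 (SE 0.48), -0.00023 (SE 0.11) and 0.02 (SE 0.04). EPO had only 12 to 32 counts per library, so its ratio was poorly determined. VEGFA had a smaller difference than EDN1, ADM, HMOX1 and ANGPTL4, though the difference between genes was not tested.

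The last lists were mixed. Of 9 tested genes for mitochondria and pH, only MXI1, a MYC antagonist, rose, by 0.29 (SE 0.09, adjusted p = 0.0423 in edgeR), and it was not called without control replicate 1 or any 1 of the TKT libraries, with values between 0.20 and 0.32. BNIP3L, the paralog of BNIP3, had a log2 ratio of 0.11 (SE 0.06) and was not called. Of 5 matrix enzymes, LOXL2 rose from 3.75 ± 0.524 to 7.87 ± 0.409 CPM (SD, n = 3 per condition). Its log2 ratio was 1.07 (SE 0.16, adjusted p = 7.90e-05), and 0.51 with limma on log2(FPKM + 1), where it was still called. The related oxidase LOX fell by 0.19 on the log2 scale (SE 0.05) and the lysyl hydroxylase PLOD1 fell by 0.16 (SE 0.04). PLOD1 was not called without control replicate 1 (-0.14), and LOX was not called with limma on log2(FPKM + 1), at -0.18. P4HA2, the paralog of P4HA1, had 0.11 (SE 0.08) and was not called.

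Among 16 tested targets of other function, 4 rose and 3 fell. BHLHE41, a transcriptional repressor of the clock, had 24, 22 and 26 counts in control cultures and 127, 58 and 110 on overexpression, a log2 ratio of 1.93 (SE 0.29, adjusted p = 1.19e-04 in edgeR). With limma on log2(FPKM + 1) it was still called, at 0.54. PLIN2, a coat protein of lipid droplets, rose from 234 ± 6.96 to 355 ± 9.21 CPM (SD, n = 3 per condition). Its log2 ratio was 0.60 (SE 0.04, adjusted p = 2.01e-10). DDIT4, an inhibitor of mTORC1 that hypoxia and other stresses induce, fell by 0.44 on the log2 scale (SE 0.07, adjusted p = 1.32e-04), and STC2 fell by 0.24 (SE 0.04, adjusted p = 4.29e-04). ERO1A fell by 0.21 and KDM3A, a histone demethylase, rose by 0.20 (SE 0.06 for each). ERO1A was not called without control replicate 2 or any 1 of the TKT libraries (-0.24 to -0.13), and KDM3A was called in none of the leave-one-out fits but the one without control replicate 2, with 0.15 to 0.22 in the others. HILPDA, a lipid droplet protein strongly tied to hypoxia, had a log2 ratio of -0.11 (SE 0.09) and was not called.

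**Figure D4:**
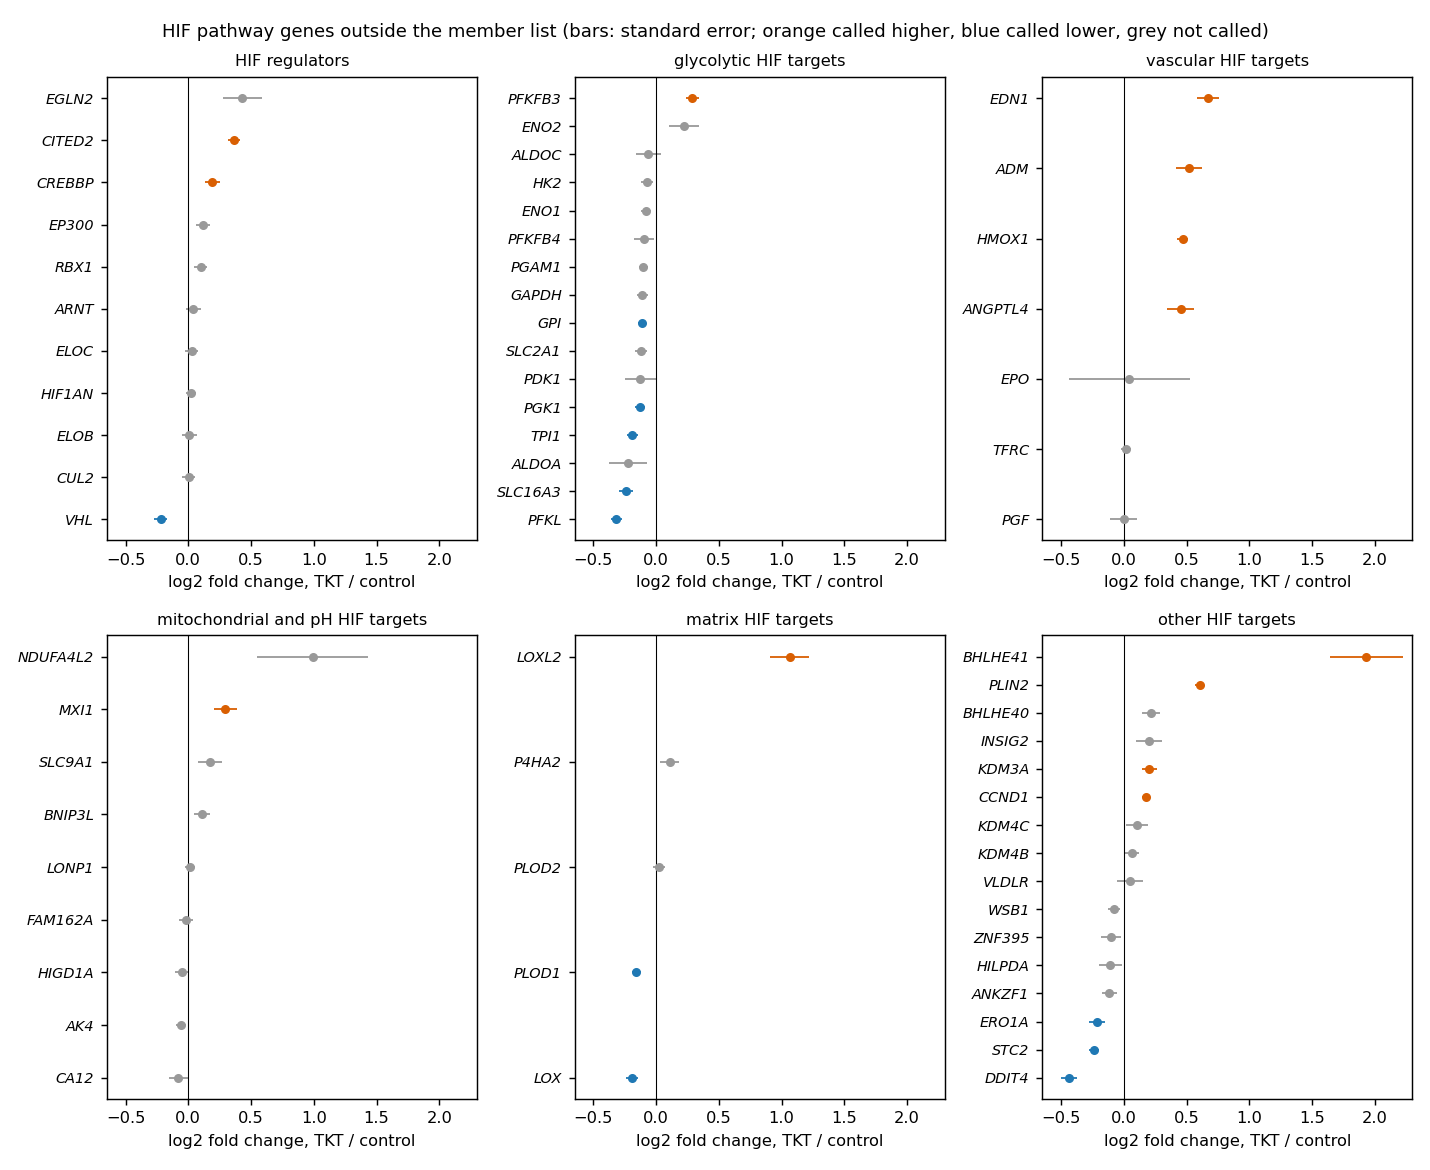
Log2 fold change, TKT overexpression over control, of 64 tested pathway genes in 6 lists, with bars for the SE and colour for calls at an adjusted p-value under 0.05 (orange higher, blue lower, grey not called). Of the vascular genes shown 4 of 7 are called higher, and of the glycolytic genes 5 of 16 are called lower and 1 higher. Over all tested genes 5.69% are called higher and 4.94% lower.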

How the data were processed

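The authors trimmed reads with fastp 0.22.0, aligned them to hg38 with HISAT2 2.1.0 (versions per the labels) and counted them per gene with featureCounts; strand and annotation are not given in the sources used here. They deposited whole-number counts without normalization and FPKM values, both used here.

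The main analysis used edgeR 4.0.16 under R 4.3.3. Low genes were removed by filterByExpr (minimum count 10), libraries were scaled by TMM, and the unpaired robust quasi-likelihood test was followed by Benjamini-Hochberg adjustment over 14162 genes, with calls made below 0.05. The study's extra limit, an absolute log2 fold change over 1, was counted separately. CPM used TMM factors, and log2 CPM a prior count of 2. The common biological coefficient of variation was 0.113, and replicates were no copies of each other (chi-square per degree of freedom between 7.24 and 9.99, and between 31.1 and 38.6 across conditions). The scripts were tested on simulated data.

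Alternatives were DESeq2 1.42.0, other scalings and filters, a replicate block, each library left out, and limma 3.58.1 on log2(FPKM + 1) and log2(FPKM + 0.1). Members and lists were chosen with earlier results of these data known. Genes named from a list were those called, up to the 6 with the largest absolute change per list; others were named after their values were seen. Of the called pathway genes, 1 stayed in the counts and is not reported here.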

Additional observations from a re-analysis of the deposited data

How the results depend on the processing

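Among the 34 genes followed singly (9 members, 24 pathway genes and TKT), 20 kept their direction and their side of the threshold in all alternatives that gave a value. In 77 of 508 values a call was lost and in none was one gained. The 24 pathway genes were followed because the main fit called them, so only the 6 uncalled members could gain one. In 3 values the direction turned, all for P4HA1. Its log2 fold change was -0.00063 without control replicate 1, -0.019 without TKT replicate 2 and -0.0074 without TKT replicate 3. Its highest value was 0.063, without TKT replicate 1. The 1505 called genes became 697 with the replicate number as a block, 827 with limma on log2(FPKM + 1), 826 on log2(FPKM + 0.1), and 791 to 1586 in the fits that left out 1 library, lowest without TKT replicate 1 and 881 without control replicate 1. With upper-quartile factors 892 genes were higher and 577 lower, against 806 and 699. The 103 genes also past a log2 fold change of 1 became 63 with DESeq2, 160 without a filter on low counts, 67 with the replicate block, 13 and 66 with limma at the pseudocounts of 1 and 0.1, and 74 to 128 with a library left out. The 25 called pathway genes became 27 with DESeq2, 15 with the replicate block and 16 with either limma fit. They numbered 18 to 26 with a library left out. The cause of these shifts was not tested. Targets minus subunits lay between -0.13 and -0.05 with a library left out, was -0.10 with the replicate block and -0.11 without ANKRD37, an alternative added after seeing the data. No shared deviation by replicate number was seen. Deviations of same-numbered cultures correlated between -0.0252 and 0.0156, and not every culture correlated best with its own number. Whether the cultures were handled in pairs is not given in the sources used here, and these correlations cannot settle it. Under the block HIF1A and EPAS1 were not called, with log2 fold changes of 0.15 and 0.14, and 10 of these 24 pathway genes lost their call, among them TPI1, SLC16A3, PGK1 and GPI, which left PFKL lower and PFKFB3 higher among the glycolytic targets. The log2 ratios of LOXL2 and BHLHE41 fell to 0.51 and 0.54 with limma on log2(FPKM + 1), a pseudocount that shrinks low genes. No difference was detectable for CA9 and ANKRD37 at the counts listed, and whether depth or the assignment of reads limits them was not tested.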
